A study of Mus musculus with 32 samples.

Results

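The nuclear-encoded genes of oxidative phosphorylation were examined for peaks of N6-methyladenosine (m6A), the commonest internal modification of messenger RNA, in mouse embryonic stem cells. Members were the protein-coding genes with a symbol starting with Nduf, Uqcr or Atp5, those named Cox4 to Cox8 with a suffix, Sdha, Sdhb, Sdhc, Sdhd and Cyc1, with Cox7b left out. The rule found 96 genes among 21900 protein-coding genes of the GRCm38.p6 gene table, the same build as mm10. A member counted as marked in a peak list if at least 1 peak summit, the position of highest signal, lay in its gene body on either strand.

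Oxidative phosphorylation takes place in the inner mitochondrial membrane. Complex I (NADH dehydrogenase) and complex II (succinate dehydrogenase) pass electrons to ubiquinone, complex III passes them to cytochrome c, and complex IV (cytochrome c oxidase) passes them to oxygen. Complexes I, III and IV pump protons, and complex V (ATP synthase) uses the proton gradient to make ATP. Most subunits are encoded in the nucleus, transcribed from short and broadly active genes, and imported into mitochondria, while a few core subunits are encoded by mitochondrial DNA. METTL3, the catalytic subunit, and METTL14, its partner in RNA binding, form the core of the enzyme that places m6A on RNA.

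RNA fragments carrying m6A were pulled down with an antibody and sequenced, either from RNA with a poly(A) tail (mRNA) or from the RNA bound to chromatin, freed of ribosomal RNA (caRNA). The cells were of C57BL/6 background and came as a Mettl3 line and a Mettl14 line, each with knockout cells, called CKO in the titles, and with control cells of its own. All groups grew with LIF at 1000 U/ml, the GSK3 inhibitor CHIR99021 at 3 µM and the MEK inhibitor PD0325901 at 1 µM. The 16 immunoprecipitation libraries, 2 for each of 8 groups by RNA type, line and genotype, each came with 1 deposited peak list. Input samples, also 16, were not analysed here. The labels say neither how or how completely the genes were deleted, nor how many clones each line stands for, nor whether replicates are separate cultures, so p-values measure only the spread between these samples. Any difference between lines cannot be told apart from other differences in the origin or handling of the lines.

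The mRNA lists held 16537 to 23380 peaks and the caRNA lists 37955 to 45241, and the read depth behind them is unknown. The shortest mRNA lists were those of the Mettl14 controls, with 16537 and 17738 peaks against 23380 and 22654 in the Mettl14 knockouts. In both RNA types together, 10 of 10 embryonic stem cell marker genes held a peak in some list, as did 8 of 10 feeder fibroblast markers and 6 of 8 markers of differentiated cells. A peak list holds no RNA level, so these counts do not measure the presence of a cell type. In these bulk samples fewer cells of a type and less RNA per cell cannot be told apart, and a missing peak can mean less methylation, less RNA or fewer reads. In its own line the Mettl14 gene held peaks in both caRNA controls (fold enrichments of 3.82 and 2.82) and in neither caRNA knockout, but in mRNA in both controls (1.69 and 3.07) and in the first knockout (2.30). Mettl3 held peaks in all 4 caRNA lists of its line (4.16 and 6.82 in the controls, 4.26 and 4.64 in the knockouts) and, in mRNA, in the second knockout alone (3.40). Peaks do not check the genotypes.

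Of the 96 members, 87 held a peak in at least 1 list, or 90.6%, against 62.0% of all protein-coding genes and 42.0% of the 7939 protein-coding genes of at most 10 kb. Members were short, with a median length of 7228 bp against 17146 bp over all protein-coding genes, and 67 of them were at most 10 kb long. Peaks recurred in every list for few of them: 6 members, or 6.25%, were marked in all 16 lists, against 25.4% of all protein-coding genes and 12.6% of the short ones. In all, 84 members were marked in at least 2 lists, 3 (Ndufa4, Cox7c and Atp5md) in 1 list and 9 in none. The 9 unmarked members were Ndufa1, Ndufa6, Ndufb4b, Ndufs3, Cox6a2, Cox8a, Cox8b, Cox8c and Atp5g2, with a median length of 2459 bp. Ndufs3 is the sole unmarked one among the complex I core subunits, and Cox8a, Cox8b and Cox8c are the isoforms of 1 small subunit of complex IV.

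In most lists the best peaks of members had lower folds than those of other genes. The best peak is the highest of a gene's peaks, so it depends on how many the gene holds. Neither that number nor gene length was matched, and their part was not tested. The best peak of a marked member had a median fold enrichment, the authors' ratio of pulled-down RNA over background, of 3.33 to 5.52 by mRNA list and of 4.50 to 5.76 by caRNA list. For the other marked protein-coding genes these medians were 5.34 to 7.07 and 6.49 to 7.97. Ranked among all peaks of the same list, the members' best peaks lay at a median percentile of 17.7 to 64.8 in mRNA against 64.4 to 68.4 for other genes, and of 42.8 to 69.6 in caRNA against 76.1 to 77.8. In 15 of the 16 lists the members' median percentile was below that of other genes, the exception being the first mRNA list of the Mettl14 controls, with 64.8 against 64.4 over 9 marked members. Some members passed the 90th percentile of fold in some list, among them Ndufa10, Ndufa12, Ndufb6, Ndufb9, Ndufs4, Ndufs5, Uqcr11, Cox7a1, Atp5c1 and Atp5e. The share of other genes that did so is not given, so this does not set the members apart.

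**Figure D1:**
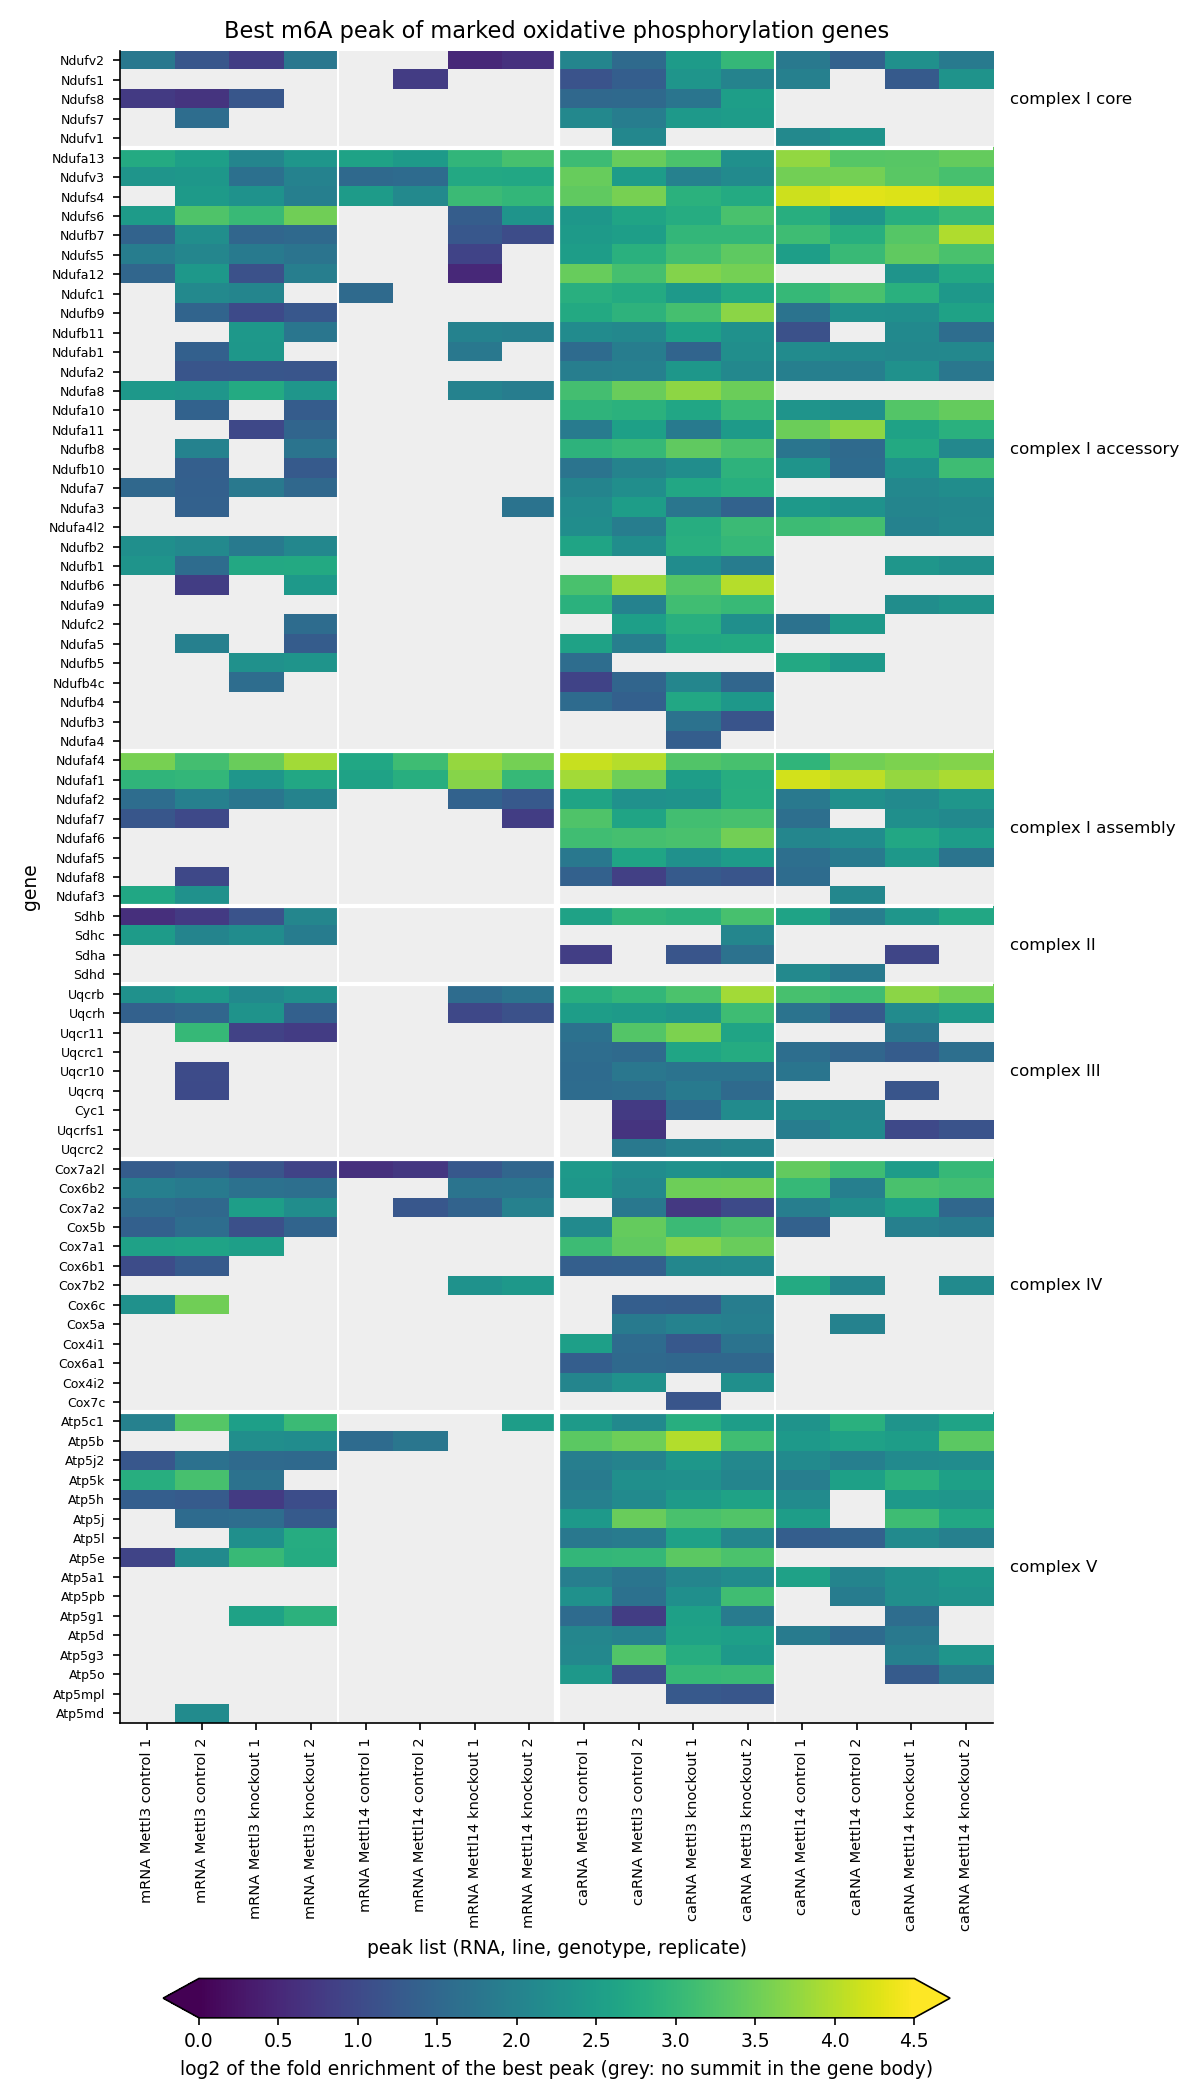
Each row is a marked member, with 1 of the 87 not shown, ordered by complex and by the number of lists that hold it, and each column is 1 of the 16 peak lists. Colour gives log2 of the fold enrichment of the best peak in the gene body, and grey means no summit there. The 4 mRNA lists of the Mettl14 line are mostly grey, and the 8 caRNA lists are the fullest.

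Among the core subunits of complex I, which carry the flavin and the iron-sulphur clusters, Ndufv2 was marked in 6 mRNA and 8 caRNA lists, with folds of 1.44 to 3.50 in mRNA. Ndufs8 and Ndufs7 were marked in lists of the Mettl3 line alone, and Ndufv1, which binds NADH, in 3 caRNA lists with folds of 4.25, 4.33 and 4.99. Ndufs1, the largest iron-sulphur subunit, was marked in 1 mRNA and 7 caRNA lists.

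Accessory subunits of complex I surround the core and serve its assembly and stability. Of the 34, 31 held a peak, and Ndufa13 and Ndufv3 did so in all 16 lists. The best fold of Ndufa13, a membrane subunit also studied in cell death, ranged in mRNA from 4.13 to 9.15 with a median of 5.92, and in caRNA from 4.79 to 13.7 with a median of 9.96. Ndufv3 ranged from 2.91 to 6.59 in mRNA (median 4.54) and from 3.93 to 11.8 in caRNA (median 9.64). The ranges of both genes overlap between RNA types. Ndufs4, a subunit whose loss causes a Leigh-like syndrome in mice, reached the highest folds of the accessory subunits, with 17.7, 19.7, 19.2 and 17.9 in the 4 caRNA lists of the Mettl14 line against 6.70 to 11.95 in caRNA of the Mettl3 line, where the lines did not overlap.

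Assembly factors of complex I, with symbols starting with Ndufaf, are not part of the finished enzyme, and all 8 held a peak. Ndufaf1 was marked in all 16 lists with folds of 5.18 to 12.8 in mRNA and 5.66 to 18.4 in caRNA, and Ndufaf4 with 6.40 to 14.7 and 7.72 to 17.4. In the list where each stood highest, their best peaks reached the 98.9th and 98.6th percentile. In some lists Ndufaf1 lay below the median best fold of other genes, as in the first mRNA list of the Mettl3 knockouts (5.18 against 6.24). Ndufaf5 and Ndufaf6 were marked in all 8 caRNA lists and in no mRNA list, while Ndufaf3 was marked in both mRNA controls of the Mettl3 line (6.43 and 4.86) and in 1 caRNA list.

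In complex II all 4 subunits held a peak. Sdhb, its iron-sulphur subunit, was marked in all 8 caRNA lists with folds of 3.80 to 9.13 and, in mRNA, in the 4 lists of the Mettl3 line with 1.53 to 4.19. Sdhc, a membrane anchor, had folds of 5.55, 4.08, 4.58 and 3.71 in the 4 mRNA lists of the Mettl3 line and was marked in 1 caRNA list (4.20). The mRNA lists of the Mettl14 line held no peak of any complex II subunit.

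In complex III all 9 genes held a peak, and Uqcrb was marked in most lists, 14 of 16. Its fold was 4.40 to 5.37 in mRNA of the Mettl3 line, 3.03 and 3.31 in the Mettl14 knockouts and 7.18 to 14.7 in caRNA, so that the caRNA folds lay above the mRNA folds. Uqcrh, the hinge protein, was marked in the same number of lists, and Uqcrc2, a core protein, in 3 caRNA lists of the Mettl3 line. In complex IV 13 of 17 genes held a peak, with a median of 4 lists per gene, and Cox7a2l, a factor that helps to join complexes III and IV into supercomplexes, was marked in all 16 lists. The fold of Cox7a2l was low in mRNA, 1.54 to 2.80 with a median of 2.31, and 4.54 to 10.7 with a median of 5.47 in caRNA, without overlap. In complex V 16 of 17 genes held a peak. Atp5c1, the gamma subunit of the rotor, was marked in most lists, 13 of 16, with folds of 3.95 to 9.93 in mRNA and 4.39 to 7.23 in caRNA, and these ranges overlap.

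The members held 1480 peaks, 361 in mRNA and 1119 in caRNA. Of these, 94.4% lay on the strand of the gene, against 90.1% for other protein-coding genes, and 83 lay on the opposite strand. Atp5b, the catalytic beta subunit of ATP synthase, held 24 of those 83, and all 4 of its mRNA peaks were among them. Both mRNA peaks of Ndufb5 and all 5 peaks of Cox7b2, a testis isoform of complex IV, lay on the opposite strand too. For 19 members the promoter table gave no strand, and the strand whose peaks had the larger sum of −log10 p was taken. Another gene's body also held the summit of 3.51% of the members' peaks, including all those of Cox7a2, Cox4i2 and Ndufb4c, so these cannot be given to 1 gene.

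Merging overlapping peaks of the 16 lists by strand gave 289 regions in members, 258 of them on the strand of the gene. Of the 110 strand-matched regions seen in mRNA, 95.5% were also seen in caRNA, and of the 253 seen in caRNA, 41.5% were also seen in mRNA. For other protein-coding genes these shares were 86.9% and 42.2%. Only 5 of the members' regions recurred in all 16 lists: chr17:83501953-83502835 in Cox7a2l, with a median summit 366 nt from the gene end, chr8:69901447-69903116 in Ndufa13, chr2:119659649-119660797 in Ndufaf1, chr4:24901565-24902021 in Ndufaf4 and chr17:31527172-31528390 in Ndufv3. The gene table gives no exons, so their place in exon, intron or UTR is not given. Another 50 regions were seen in 1 list alone.

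Within each line, the caRNA lists held more members than the mRNA lists. In mRNA 34 and 52 members were marked in the Mettl3 controls, 44 and 44 in the Mettl3 knockouts, 9 and 10 in the Mettl14 controls and 21 and 21 in the Mettl14 knockouts. In caRNA 69 and 75 were marked in the Mettl3 controls, 78 and 78 in the Mettl3 knockouts, 52 and 47 in the Mettl14 controls and 55 and 51 in the Mettl14 knockouts. Every caRNA list of a line held more members than every mRNA list of the same line. Over all protein-coding genes the share marked was 34.8% to 43.1% by mRNA list and 46.2% to 50.4% by caRNA list, while for members it was 9.38% to 54.2% and 49.0% to 81.2%.

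**Figure D2:**
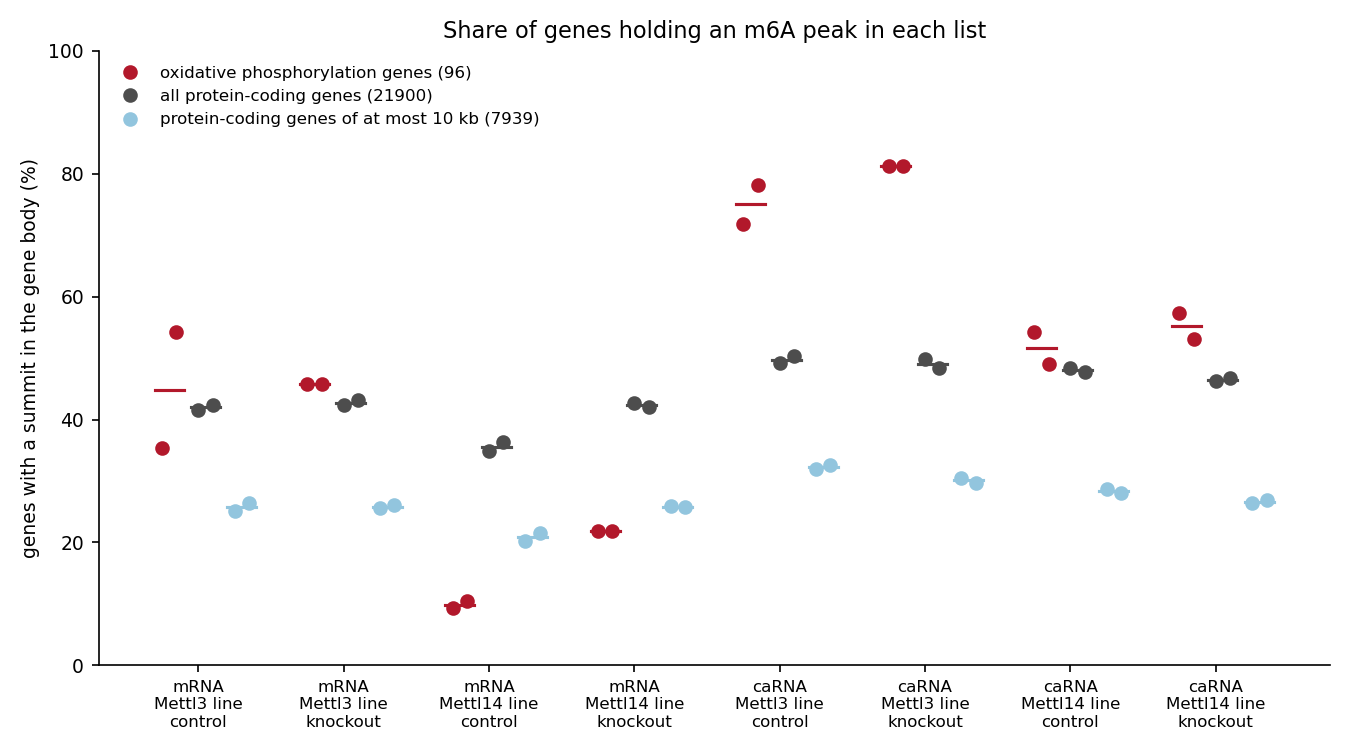
Points give the percentage of genes with a peak summit in the gene body in each of the 16 lists, for the 96 members, all 21900 protein-coding genes and the 7939 of at most 10 kb, and lines give the mean of the 2 replicates. The members' share moves from 9.38% in an mRNA list of the Mettl14 controls to 81.2% in both caRNA lists of the Mettl3 knockouts, while all protein-coding genes stay between 34.8% and 50.4%.

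Of the 87 marked members, 61 held peaks in both RNA types, 25 in caRNA alone and 1, Atp5md, in mRNA alone. The caRNA-only share was 28.7% of marked members and 15.8% of all marked protein-coding genes. Members marked in caRNA alone had a median length of 7510 bp, close to the 7495 bp of those marked in both. An exact permutation test of peak presence was run on the 13011 protein-coding genes marked in at least 2 lists, 84 of them members, with labels exchanged within each line and genotype. The share of caRNA lists with a peak minus the share of mRNA lists with a peak had a median of 0.375 over the 84 members and of 0 over the other genes tested, and it was above 0 for 71 members, below 0 for 3 and 0 for 10. No member passed an adjusted p (Benjamini-Hochberg over all 13011 genes) of 0.05 in favour of caRNA or of mRNA, nor did any other gene (0% in each direction). The smallest adjusted p that these permutations gave was 0.0672. At an unadjusted p under 0.05, 24 of the 84 members (28.6%) were marked more often in caRNA, against 10.9% of all genes tested, and 0 members more often in mRNA, against 2.05%. The count moved with the choice of peaks: with the 10000 strongest of each list, 2 of 48 members tested had an unadjusted p under 0.05 in favour of caRNA, beside 4.80% of all genes, and 9.10% of all genes then leaned to mRNA. That choice shortens the lists, drops weak peaks and lowers the number of members tested together, and these were not told apart.

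**Figure D3:**
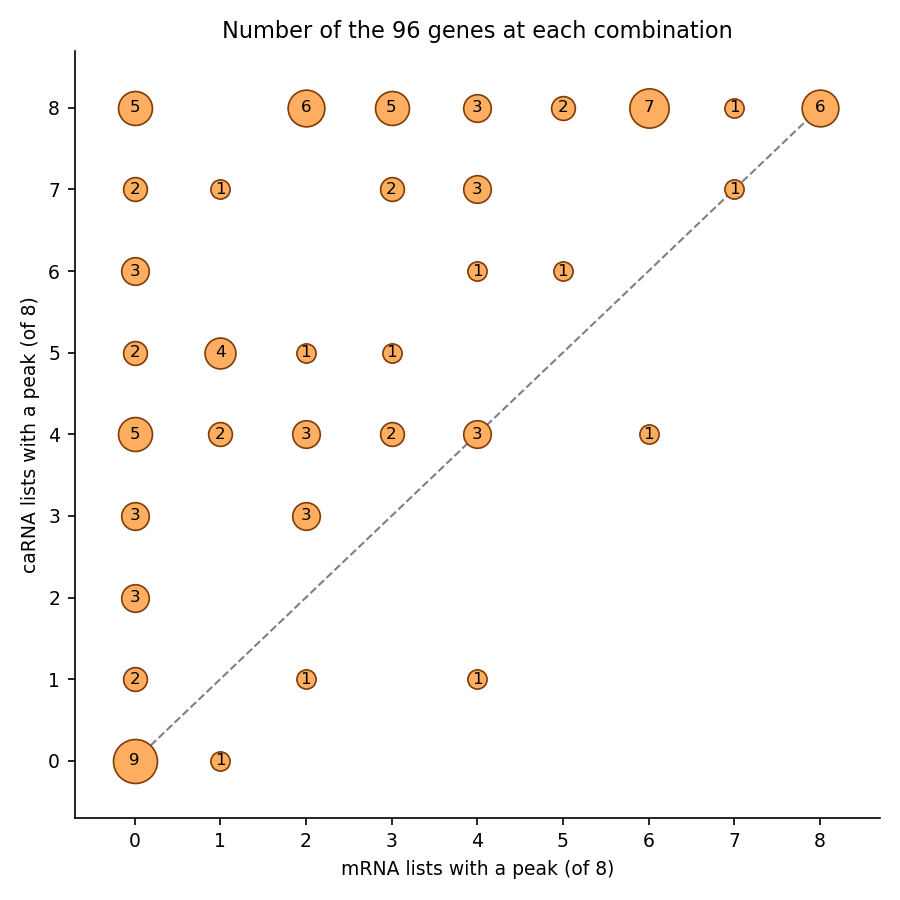
Each circle gives the number of the 96 members marked in the number of mRNA lists on the x axis and of caRNA lists on the y axis, with the dashed line at equal numbers. Most members lie above the line, 5 at 8 caRNA lists and 0 mRNA lists, 6 at 8 and 8, and 9 at 0 and 0.

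The lowest p that the test allows, 0.00154, was reached by 5 members marked in all 8 caRNA lists and in no mRNA list, each with an adjusted p of 0.0672. These were chosen after their values were seen. Uqcrc1, a core protein of complex III, had caRNA folds of 3.05 and 2.95 in the Mettl3 controls, 6.28 and 6.80 in the Mettl3 knockouts, 3.09 and 2.79 in the Mettl14 controls and 2.47 and 3.14 in the Mettl14 knockouts. Its Mettl3 knockouts lay above all other lists. Atp5a1, the alpha subunit of the catalytic head of ATP synthase, had folds of 3.38 to 5.94, with all groups close to each other. Ndufaf6 had 8.66, 9.05, 9.29 and 11.6 in caRNA of the Mettl3 line and 4.18, 4.56, 6.46 and 5.63 in caRNA of the Mettl14 line, without overlap between the lines. Ndufaf5 ranged from 3.14 to 6.27, with no such split. Ndufa4l2, a paralogue of Ndufa4, whose product is now placed in complex IV, ranged from 3.74 to 8.86, and 4 of its 8 peaks lay on either strand, so its count of lists joins peaks of both strands.

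By complex, the 24 members with an unadjusted p under 0.05 in favour of caRNA (10.9% over all genes tested, and 2 members with the 10000 strongest peaks) were 1 of 6 complex I core subunits tested, 11 of 30 accessory subunits, 2 of 8 assembly factors, 0 of 4 complex II genes, 3 of 9 complex III genes, 0 of 12 complex IV genes and 7 of 15 complex V genes. The median difference in the share of lists was 0.5 in complexes III and V and 0.25 in complex IV. In complex V the others with such a p were Atp5d, Atp5g3, Atp5k, Atp5l, Atp5o and Atp5pb. The classes were not compared by a test.

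Summits of members lay at both ends of the gene body. On the strand of the gene, 12.2% of the members' mRNA summits and 20.5% of their caRNA summits lay in the first 10% of the gene body, and 28.5% and 22.0% in the last 10%. For other protein-coding genes the first 10% held 9.49% and 15.1%, and the last 10% 33.1% and 20.2%. In terms of genes, 16 to 32 members per caRNA list and 1 to 12 per mRNA list had a summit within 500 nt of the gene start. These made up 27.9% to 42.9% of strand-matched marked members in caRNA and 7.69% to 28.6% in mRNA. All protein-coding genes gave 20.6% to 29.97% and 5.88% to 14.4%, and the short ones 27.2% to 38.2% and 12.1% to 24.3%. List by list, the members' share was above that of the short genes in 7 of the 8 caRNA lists and in 5 of the 8 mRNA lists. The short genes do not match the members in length, since 29 members are over 10 kb, and the difference was not tested.

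**Figure D4:**
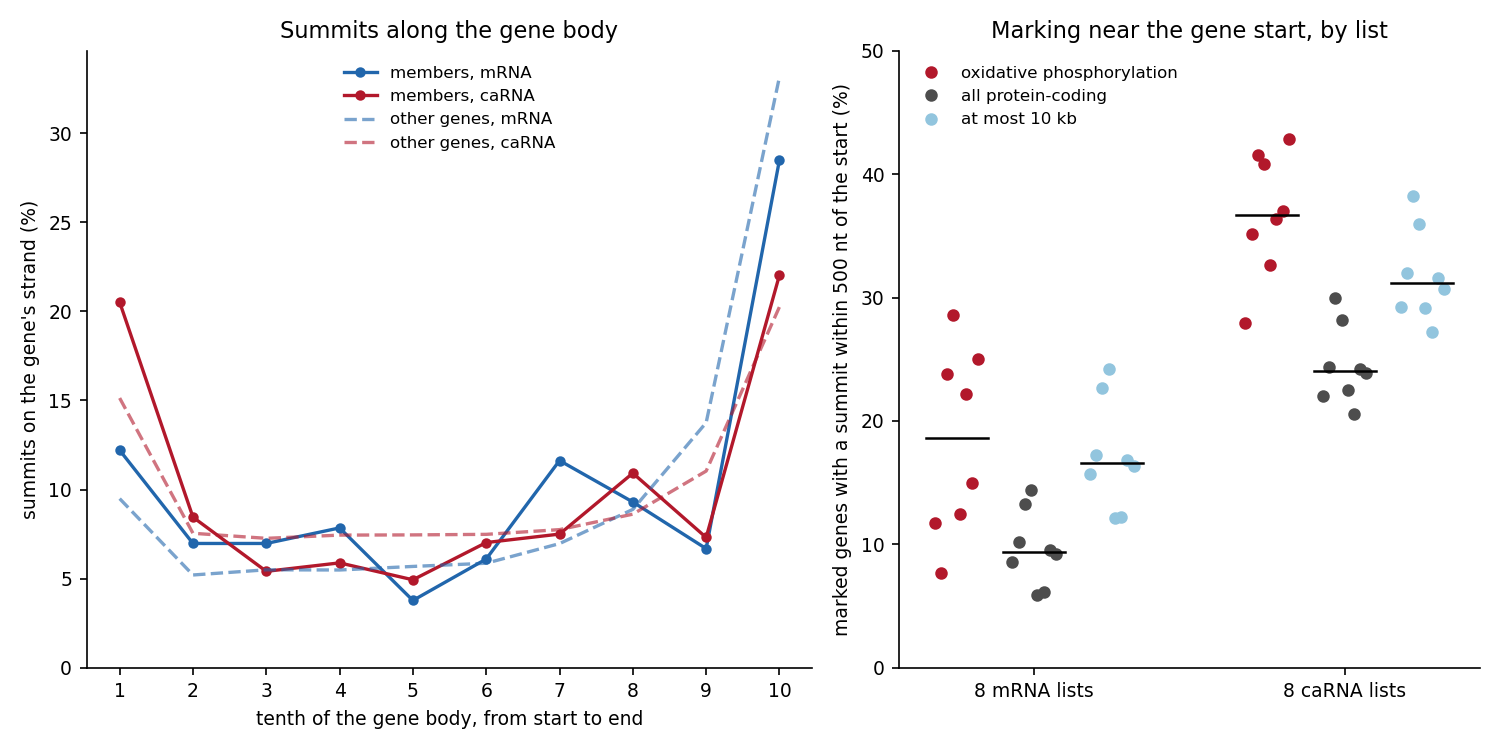
Left, the percentage of strand-matched summits in each 10% of the gene body, from start to end, for members (solid lines) and other protein-coding genes (dashed lines) in mRNA (blue) and caRNA (red). Right, for each list, the percentage of marked genes with a summit within 500 nt of the start, with black lines at the medians, 18.6% for members in mRNA and 36.7% in caRNA. Members peak in the first and last 10%, the first being higher in caRNA.

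A summit near the start was found for 38 members in some caRNA list and for 18 in some mRNA list, and 22 members had one in caRNA and in no mRNA list. These are 39.6%, 18.8% and 22.9% of the 96, against 20.4%, 8.23% and 13.1% of all protein-coding genes, fewer of which hold any peak. A start summit recurred in all 8 caRNA lists for 9 members (9.38%, against 4.58% of all protein-coding genes) and in all 8 mRNA lists for 0. The 9 included Ndufa11, Ndufab1 (the mitochondrial acyl carrier protein), Ndufb7, Ndufb8, Ndufs6, Ndufaf4, Uqcrc1 and Atp5l. Ndufs6, an accessory subunit needed for a late step of assembly, had its start peak at a median of 173 nt in 6 mRNA and 8 caRNA lists, with folds of 2.20 to 11.5. That of Uqcrc1 lay at a median of 180.5 nt and in no mRNA list.

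The promoters of members with a start summit in all 8 caRNA lists are shown because these peaks lie next to the place where transcription starts. Of the 9, 8 were in RefSeq's promoter table for GRCm38.p6, and all 8 are printed, each from 120 bases before the annotated start to the first 30 bases of the transcript, 5′ to 3′ on the strand of the gene. Capitals mark matches, on either strand, to GCGCNTGCG, from the core of sites of the factor NRF1, to CCGGAAG, the core of sites of ETS factors such as GABP, to AAGATGGCG, from a YY1 site, or to TATAAA, and a match that runs past an edge is shown in part. NRF1 and GABP are known regulators of oxidative phosphorylation genes.
Ndufs6, chr13:73328453-73328602, minus strand: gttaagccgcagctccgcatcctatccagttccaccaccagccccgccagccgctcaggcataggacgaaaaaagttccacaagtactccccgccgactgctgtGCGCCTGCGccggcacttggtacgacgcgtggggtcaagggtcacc
Ndufa11, chr17:56717642-56717791, plus strand: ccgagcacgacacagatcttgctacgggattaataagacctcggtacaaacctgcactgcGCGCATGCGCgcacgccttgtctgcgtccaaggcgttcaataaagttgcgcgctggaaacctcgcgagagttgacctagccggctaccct
Ndufaf4, chr4:24897963-24898112, plus strand: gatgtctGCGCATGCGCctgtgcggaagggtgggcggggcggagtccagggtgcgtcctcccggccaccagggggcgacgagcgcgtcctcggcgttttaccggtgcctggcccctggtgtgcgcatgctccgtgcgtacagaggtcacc
Uqcrc1, chr9:108936528-108936677, plus strand: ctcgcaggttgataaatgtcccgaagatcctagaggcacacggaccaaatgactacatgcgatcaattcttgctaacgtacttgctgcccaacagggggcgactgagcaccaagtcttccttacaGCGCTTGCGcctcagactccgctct
Ndufb7, chr8:83566638-83566787, plus strand: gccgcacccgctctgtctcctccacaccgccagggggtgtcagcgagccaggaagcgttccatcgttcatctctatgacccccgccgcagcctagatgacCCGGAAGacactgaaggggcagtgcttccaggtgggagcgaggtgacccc
Atp5l, chr9:44920713-44920862, minus strand: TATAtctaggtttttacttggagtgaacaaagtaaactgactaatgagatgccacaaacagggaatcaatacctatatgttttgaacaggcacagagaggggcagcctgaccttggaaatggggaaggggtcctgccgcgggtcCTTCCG
Ndufab1, chr7:122101819-122101968, minus strand: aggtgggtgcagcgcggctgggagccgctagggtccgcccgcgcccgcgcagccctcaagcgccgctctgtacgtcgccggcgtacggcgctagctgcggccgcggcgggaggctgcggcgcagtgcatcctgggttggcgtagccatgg
Ndufb8, chr19:44555413-44555562, minus strand: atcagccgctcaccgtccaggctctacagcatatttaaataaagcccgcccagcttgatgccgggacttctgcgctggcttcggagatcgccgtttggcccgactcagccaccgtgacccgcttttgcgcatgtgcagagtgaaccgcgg
The first 4 stretches hold an NRF1 match and that of Ndufb7 holds an ETS match, 20 bases before the start. That of Atp5l holds parts of a TATAAA match and of an ETS match at its edges, and those of Ndufab1 and Ndufb8 hold none. Over 300 bases, from 250 before to 50 from the start, 5 of the 8 held an NRF1 match, 2 an ETS match and 2 none of the 4 motifs. Among all members, 27 of 82 promoters (32.9%) held the NRF1 pattern, against 6.31% of the 32851 promoters of the table. The ETS pattern was in 19 (23.2%) against 8.86%, the YY1 pattern in 8 (9.76%) against 1.40% and TATAAA in 9 (10.98%) against 13.6%. The NRF1 pattern can match both strands at nearly the same place and was counted once per promoter, the NRF1 and YY1 patterns were shortened by 1 letter after counts were seen, and a promoter can hold several motifs. A match describes letters, not binding, and its relation to the m6A peaks was not tested.

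The other end of the gene was marked in more members: 55 had a summit within 500 nt of the gene end in some caRNA list and 35 in some mRNA list. These are 57.3% and 36.5% of the members, against 15.1% and 12.9% of all protein-coding genes. The share of strand-matched marked members with such a summit split by line without overlap. In mRNA it was 38.1% to 59.6% in the Mettl3 line and 10% to 20% in the Mettl14 line, against 29.1% to 39.0% and 33.7% to 34.8% of the short genes. Few members stand behind the mRNA shares of the Mettl14 line: 1 of 8 and 1 of 9 in the controls and 4 of 20 and 2 of 20 in the knockouts. In caRNA it was 48.6% to 61.0% in the Mettl3 line and 26.5% to 31.8% in the Mettl14 line, against 35.7% to 38.7% and 28.9% to 31.3%. The members' share was above that of the short genes in all 8 lists of the Mettl3 line, in no mRNA list of the Mettl14 line and in 2 of its 4 caRNA lists, and the difference between lines was not tested. Cox7a2l had one in all 16 lists. Ndufs5, Ndufb7, Uqcrb, Ndufa2 and Atp5j2 had one in all 8 caRNA lists.

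The lists of the Mettl14 line held fewer members than those of the Mettl3 line. In caRNA the Mettl14 line's lists held 47 to 55 members and the Mettl3 line's 69 to 78, without overlap, while all marked protein-coding genes numbered 10118 to 10599 and 10593 to 11032. In mRNA the counts were 9 to 21 and 34 to 52. The share of Mettl3-line lists with a peak minus that of Mettl14-line lists had a median of 0.25 over the 84 members and 0 over the other genes, and was above 0 for 64 members, below 0 for 5 and 0 for 15. In the same exact permutation test, with line labels exchanged within RNA type and genotype, 0 members and 0 other genes passed an adjusted p of 0.05 in either direction (0% in each), and the smallest adjusted p was 0.558. At an unadjusted p under 0.05, 18 of 84 members (21.4%) were marked more often in the Mettl3 line, against 3.06% of all genes tested, and 1, Cox7b2, more often in the Mettl14 line, against 1.24%. Without the second caRNA library of the Mettl14 knockouts, Cox7b2 no longer reached that p, and the count was 0, as it was on the strand of the gene alone, since the peaks of Cox7b2 lie on the opposite strand. With the 10000 strongest peaks of each list, 15 of 48 members favoured the Mettl3 line beside 4.58% of all genes. The 16 lists are the same as in the comparison of RNA types.

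Ndufb2 and Atp5e, the epsilon subunit of ATP synthase, showed the cleanest split between lines, and are named after their values were seen. Ndufb2 had folds of 4.71, 4.36, 3.62 and 4.23 in mRNA and 6.20, 4.62, 7.14 and 7.99 in caRNA of the Mettl3 line, and no peak in any list of the Mettl14 line. Atp5e had 1.89, 4.45, 8.19 and 6.81 in mRNA and 7.92, 7.99, 10.3 and 9.30 in caRNA of the Mettl3 line, and likewise none in the Mettl14 line. Each had a p of 0.00154 and an adjusted p of 0.558. Both controls and both knockouts of the Mettl3 line held a peak of each gene in each RNA type, but the best peaks of Atp5e lay in different regions. Its mRNA folds from 4.45 up came from chr2:174463849-174464062 on the opposite strand, marked in 3 mRNA and 3 caRNA lists. Its best caRNA peaks lay in chr2:174462529-174462727, seen in 0 mRNA lists. The region of Atp5e marked in 4 mRNA and 4 caRNA lists, chr2:174461165-174461358, had folds of 1.85 to 3.48. Other members with an unadjusted p under 0.05 included Ndufs7 and Ndufs8 of the complex I core, Sdhc, Uqcr11, and Cox5b, Cox6b1, Cox6c and Cox7a1 of complex IV. Of the 27 members marked in all 4 mRNA lists of the Mettl3 line, 9 (33.3%) were in no mRNA list of the Mettl14 line, against 4.68% of the 7923 protein-coding genes marked in those 4 lists.

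Between knockout and control lists, Ndufb11 alone of the members reached an unadjusted p under 0.05. The share of knockout lists with a peak minus that of control lists had a median of 0 over the 84 members and 0 over the other genes, and was above 0 for 37 members, below 0 for 17 and 0 for 30. The exact permutation test over all 4 comparisons, with genotype labels exchanged within RNA type and line, gave 0 members and 0 other genes past an adjusted p of 0.05 in either direction (0% in each), with a smallest adjusted p of 1. At an unadjusted p under 0.05 there was 1 member marked more often in knockouts, against 0.292% of genes, and there were 0 marked more often in controls, against 0.169%. The 1 was Ndufb11, an X-linked accessory subunit, marked in 3 control and 8 knockout lists (p = 0.0278 in the exact test, adjusted p = 1). Without the second caRNA library of the Mettl14 controls the count was 0. Within 1 comparison 2 libraries against 2 allow no exact p under 0.33, so single comparisons were described by calls without a test.

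Calls rest on presence: lost means marked in both controls but no knockout, gained means marked in both knockouts but no control, and retained means marked in all 4 libraries. In mRNA of the Mettl3 line 27 members were retained, 4 of the 34 marked in both controls were lost, and 6 of the 38 marked in both knockouts were gained. The background was 3.67% lost and 4.67% gained over all protein-coding genes. The lost members were the assembly factors Ndufaf3 (folds of 6.43 and 4.86 in the controls) and Ndufaf7 (2.32 and 1.98), and the complex IV subunits Cox6b1 (2.06 and 2.43) and Cox6c (4.83 and 11.5). The gained were Ndufa11 (1.98 and 2.75 in the knockouts), Ndufb11 (5.25 and 3.40), Ndufb5 (4.86 and 5.02), Atp5b (4.69 and 4.57), Atp5g1 (6.01 and 7.42), which encodes the c-ring of ATP synthase, and Atp5l (4.74 and 6.93). The peaks of Ndufb5 and Atp5b lay on the opposite strand, and those of Ndufa11 in the 2 knockouts lay in different regions. The controls held 34 and 52 members. Leaving out a library loosens the call, which then rests on the other list of its group. Counts of genes lost or gained can thus only stay or rise, here and in the other comparisons. Without the first control 10 of 52 members were lost, against 5.71% of all genes, and without the first knockout 7 of 34, against 5.79%. Without the second control 11 of 38 were gained, against 7.80%.

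In mRNA of the Mettl14 line 7 members were retained, 1 of 8 was lost and 10 of 18 were gained, against a background of 1.7% lost and 12.6% gained. In the same comparison, of the markers of differentiated cells 3 were gained and 3 retained. Of the feeder fibroblast markers 2 were gained, 1 lost and 2 retained, and of the embryonic stem cell markers 1 was gained, 1 lost and 6 retained. In mRNA of the Mettl3 line 2 markers of differentiated cells were gained and 3 retained. There 0 feeder markers were gained and 4 retained, and of the embryonic stem cell markers 2 were lost and 7 retained. In caRNA of the Mettl3 line 1 marker of differentiated cells was lost and 2 feeder markers were gained. In caRNA of the Mettl14 line 0 of these markers were lost or gained. The part of other cells in the members' calls was not tested. The gained members were Ndufa8 (folds of 3.997 and 3.76 in the knockouts), Ndufb11 (4.001 and 3.91), Ndufb7 (2.33 and 2.07), Ndufs6 (2.49 and 5.04), Ndufaf2 (2.66 and 2.38), Ndufv2 (1.44 and 1.55), Uqcrb (3.03 and 3.31), Uqcrh (1.97 and 2.16), Cox6b2 (3.33 and 3.36) and Cox7b2 (4.90 and 5.26). The highest of these folds was 5.26, and the peaks of Cox7b2 lay on the opposite strand. Of the 10, 8 were marked in all 4 mRNA lists of the Mettl3 line, as were 56.2% of the 1123 protein-coding genes gained in this comparison. Among the mRNA lists, these 8 members were thus unmarked only in the 2 Mettl14 controls. With the 10000 strongest peaks of each list, a choice that also drops weak peaks, 4 of 9 members were gained, beside 6.67% of all genes. The part of list length in the call was not tested. Atp5b was the lost member, with folds of 2.97 and 3.40 in the controls, both on the opposite strand, and 0 members were lost when peaks on the strand of the gene alone were counted. Without the first control 2 of 10 members were lost, against 2.79% of all genes, and without the second control 2 of 9, against 2.24%.

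In caRNA of the Mettl3 line 66 members were retained, 0 of 67 were lost, against a background of 4.78%, and 3 of 76 were gained, against 3.76%. These were Ndufb1 (4.53 and 3.72), Ndufb3 (3.24 and 2.24) and Atp5mpl (2.38 and 2.29). Without the first control 2 of 75 were lost, against 6.50% of all genes. Without the second control 1 of 69 was lost (5.83%), and without the second knockout 1 of 67 (6.74%). Gained were 9 of 76 without the second control (6.32%) and 5 of 78 without the second knockout (6.15%). With the 10000 strongest peaks of each list, 1 of 28 was lost, against 20.2% of all genes, and 6 of 40 were gained, against 11.6%. With peaks of a fold of at least 2 alone, 5 of 75 were gained, against 3.96%.

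In caRNA of the Mettl14 line 37 members were retained, 5 of 44 were lost, against a background of 4.7%, and 6 of 50 were gained, against 2.74%. The lost were Ndufb5 (6.60 and 5.43 in the controls), Ndufc2 (3.24 and 5.40), Ndufv1 (4.33 and 4.99), Sdhd (4.35 and 3.64), a membrane anchor of complex II, and Cyc1 (4.35 and 4.19, both on the opposite strand), which encodes cytochrome c1. Sdhd was marked in no other list. The gained were Ndufa12 (5.02 and 6.59 in the knockouts), Ndufa7 (4.30 and 4.63), Ndufa9 (4.62 and 4.96), Ndufb1 (5.18 and 4.77), Atp5g3 (3.89 and 5.10) and Atp5o (2.44 and 3.55). All but Ndufb1 were marked in all 4 caRNA lists of the Mettl3 line. Without the first control 12 of 50 were gained, against 4.51% of all genes, and without the second knockout 10 of 55, against 4.21%. With the 10000 strongest peaks of each list 1 of 10 was lost, against 8.17% of all genes, and 2 of 12 were gained, against 7.63%.

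**Figure D5:**
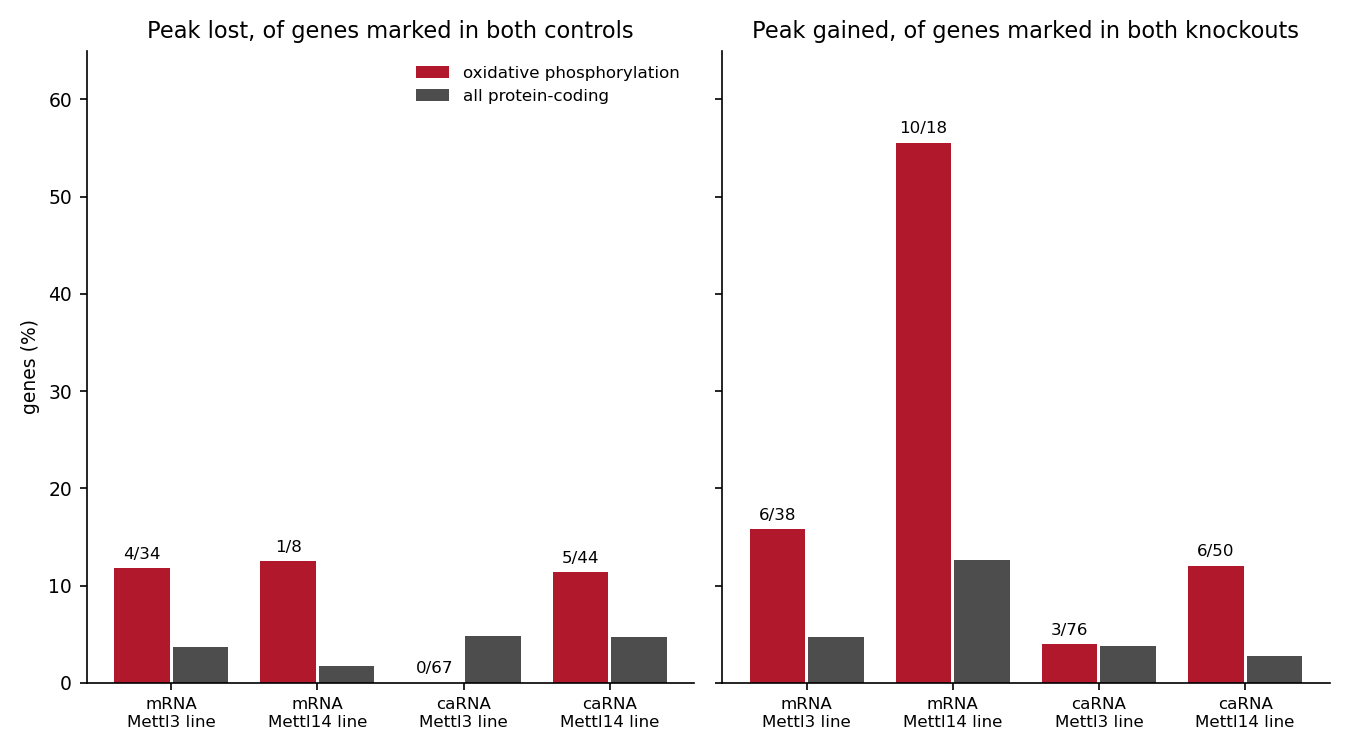
Bars give the percentage of genes whose peak was lost, of those marked in both controls (left), or gained, of those marked in both knockouts (right), for members (red, with counts above) and all protein-coding genes (grey), in the 4 comparisons of knockout with control. The tallest bar is mRNA of the Mettl14 line, with 10 of 18 members gained, and caRNA of the Mettl3 line has 0 of 67 lost.

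The same call in both lines was found for 2 members. Ndufb11 was gained in mRNA of both lines, in the same region, chrX:20617089-20617523. Ndufb1 was gained in caRNA of both lines, but in different regions, chr12:101968178-101968347 in the Mettl3 line and chr12:101974748-101974936 in the Mettl14 line. Ndufb11 had mRNA folds of 5.25 and 3.40 in the Mettl3 knockouts and 4.001 and 3.91 in the Mettl14 knockouts, and no mRNA peak in any control. In caRNA, however, Ndufb11 was marked in both Mettl3 controls (4.48 and 4.30) and in 1 of the Mettl14 controls (2.16). Over all protein-coding genes 44 were gained in both lines in mRNA (0.201%) and 22 in caRNA (0.100%). No member was lost in both lines in either RNA type, and of all protein-coding genes 0.0548% were in mRNA and 0.247% in caRNA, shares at which 0 of 96 cannot be told from the background.

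The same calls were made for single regions of members. In mRNA of the Mettl3 line 8 of 47 regions of members were lost and 8 of 52 gained, against 9.41% and 9.96% of regions in protein-coding genes. In mRNA of the Mettl14 line 1 of 9 was lost and 14 of 24 were gained, against 6.62% and 23.7%. In caRNA of the Mettl3 line 7 of 142 were lost (4.93%) and 27 of 183 gained (14.8%), against 15.4% and 16%, so that the share lost was below the background and the share gained near it. In caRNA of the Mettl14 line 14 of 68 were lost and 21 of 85 gained, against 14.4% and 9.09%. With the 10000 strongest peaks of each list, 4 regions were lost and 4 gained in mRNA of the Mettl3 line, 4 were gained in mRNA of the Mettl14 line, 4 were lost and 17 gained in caRNA of the Mettl3 line, and 1 was lost and 3 gained in caRNA of the Mettl14 line. With peaks of a fold of at least 2 alone, 5 regions were lost in mRNA of the Mettl3 line. Leaving out a library, which loosens the call, moved these counts too. In mRNA of the Mettl3 line 22 regions were lost without the first control, 15 were gained without the second control and 17 without either knockout. In mRNA of the Mettl14 line 3 were lost without either control. In caRNA of the Mettl3 line 11 to 13 were lost without any 1 of the 4 libraries, 44 were gained without the second control and 55 without the second knockout. In caRNA of the Mettl14 line 23 were lost and 32 gained without the first control, and 34 were gained without the second knockout. For these other settings no share over all regions is given, so the counts cannot be set against a background.

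In 7 of the 8 groups the replicate lists shared a smaller part of the marked members than of all marked genes. Of the members marked in either replicate, both replicates shared 65.4% in the Mettl3 mRNA controls, 72.7% to 76% in the other mRNA groups and 80% to 95% in the caRNA groups. All protein-coding genes gave 88.7% to 92.3%. The exception was caRNA of the Mettl3 knockouts, with 95% of members against 89.9% of all genes.

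Other genes of the same pathway were marked in most cases. Of 38 assembly and copper delivery factors outside the rule, such as Cox10 and Cox11, which make and insert cofactors of complex IV, 36 held a peak and 19 were marked in all 16 lists. Of 12 regulators 11 held a peak, and 8 did so in all 16 lists, among them Nrf1, Gabpa, which encodes the DNA-binding subunit of GABP, and Tfam, which packages mitochondrial DNA. Of 13 genes of the tricarboxylic acid cycle 12 held a peak and 2, Ogdh and Dld, were marked in all 16 lists. All 3 carriers (Cycs, Slc25a4 and Slc25a5) held a peak and none was marked in all 16. The exact permutation tests called 0 of the 62 genes of these lists that were tested, in either direction, for genotype, RNA type or line at an adjusted p of 0.05. At an unadjusted p under 0.05, 9 of the 62 (14.5%, against 10.9% of all genes tested) were marked more often in caRNA, 4 (6.45%, against 3.06%) more often in the Mettl3 line and 0 by genotype. No test compared these lists with the members.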

How the data were processed

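Peak lists of 16 m6A immunoprecipitation libraries, in 8 groups of 2, were used. The authors deposited 1 strand-specific list per library, and per the submitters' processing notes the build was mm10, with Trimmomatic 0.38, HISAT2 2.1.0 and SAMtools 1.9 named. For the peak caller and its settings, nothing is given in the sources read. The authors deposited, per peak, a fold enrichment (a ratio), significance as −log10 p and −log10 q, and a summit offset from the peak start; the deposited score was not used. Folds were not tested between lists.

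Summits (peak start plus offset plus 1) were assigned to gene bodies of RefSeq's GRCm38.p6 table with Python 3.11.15, numpy 2.4.6 and pandas 2.3.3. Peak presence was compared by exact two-sided permutation within strata (1296 permutations), with Benjamini-Hochberg adjustment over 13011 genes. Tested on simulated data of 13000 genes, this recovered 95.7% (RNA type), 96.2% (line) and 96.5% (genotype) of 2000 genes made to differ in nearly every list. Of 200 such genes it recovered 0, since the smallest p of 0.00154 cannot pass when few genes differ. Members named are those lost, gained, marked in all 16 lists, past the 90th percentile of fold or marked most in their complex, and others as said in the text. The values of 1 member are not reported here, though it stays in all counts. The members and lists were chosen with earlier results of these data known. Replicate numbers did not pair libraries: deviations of same-numbered libraries correlated at -0.026 to 0.016. Alternatives changed list length, minimum fold, strand, assignment, overlap, replicates and the replicate block. Exon and UTR positions and sequence motifs under the peaks were not run.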

Additional observations from a re-analysis of the deposited data

Results flagged for a closer look

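Atp5b, the beta subunit of ATP synthase, had opposite calls in mRNA of the 2 lines. It was gained in the Mettl3 line, where its knockouts had folds of 4.687 and 4.571 and its controls no peak, and lost in the Mettl14 line, with 2.973 and 3.404 in the controls and no peak in the knockouts. The calls of the gene were thus opposite in all mRNA libraries of the 2 lines, while in caRNA it was retained in both. The mRNA calls rest on different regions, chr10:128083316-128083589 in the Mettl3 line and chr10:128088354-128088636 in the Mettl14 line, so no single peak went opposite ways. The first region was also marked in all 8 caRNA lists and the second in 4. The difference between lines was not tested. All 4 of these peaks lay on the strand opposite to the gene. Over all protein-coding genes, 7 were gained in the Mettl3 line and lost in the Mettl14 line, and 31 the reverse.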

How the results depend on the processing

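No member passed the adjusted threshold in any test under any alternative, and the smallest adjusted p of the RNA-type test stayed between 0.0594 and 0.0706 outside the replicate block and the runs on 1 replicate number, which allow no p under 0.125. With the replicate number as a block, which did not pair the libraries, 0 members were called, and the smallest adjusted p was 0.329 for RNA type. In that exact test 10 of 84 members had an unadjusted p under 0.05 in favour of the Mettl3 line, against 1.53% of all genes. In favour of caRNA 16 members did, against 7.36%. For mRNA and for the Mettl14 line 0 members did, against 1.31% and 0.515%. By genotype 0 members did, against 0.0461% of genes higher in knockouts and 0.0231% higher in controls. With the 10000 strongest peaks per list, 25.1 members were marked per caRNA list on average instead of 63.1, and 2 leaned to caRNA. Member genes lost and gained were then 3 and 3 in mRNA of the Mettl3 line, 0 and 4 in mRNA of the Mettl14 line, 1 and 6 in caRNA of the Mettl3 line, and 1 and 2 in caRNA of the Mettl14 line. Over all protein-coding genes the shares lost and gained were 7.12% and 7.30%, 5.04% and 6.67%, 20.2% and 11.6%, and 8.17% and 7.63% in that order. Regions of members lost and gained were 4 and 4, 1 and 4, 4 and 17, and 1 and 3. No share over all regions is given for these or the other region counts of this section. On the strand of the gene alone, 0 members were lost in mRNA of the Mettl14 line. At a fold of at least 2, 5 members were gained in caRNA of the Mettl3 line and 5 regions were lost in mRNA of the Mettl3 line. Leaving out 1 library at a time gave, for member genes, 4 to 10 lost and 6 to 11 gained in mRNA of the Mettl3 line, 1 to 2 lost in mRNA of the Mettl14 line, 0 to 2 lost and 4 to 9 gained in caRNA of the Mettl3 line, and 6 to 12 gained in caRNA of the Mettl14 line. Over all protein-coding genes the same runs gave, in mRNA, 5.19% to 6.34% lost and 6.28% to 7.80% gained in the Mettl3 line. In mRNA of the Mettl14 line 2.24% to 2.79% were lost. In caRNA 5.83% to 7.91% were lost and 4.93% to 6.32% gained in the Mettl3 line, and 3.92% to 4.60% gained in the Mettl14 line. For regions, leaving out 1 library gave 9 to 22 lost and 10 to 17 gained, 1 to 3 lost, 11 to 13 lost and 36 to 55 gained, and 15 to 23 lost and 24 to 34 gained in the same order of comparisons. Leaving out a library loosens the call, which then rests on the other list of its group. Counts of member genes can thus only stay or rise in those runs. The cause of the other moves was not tested. Read depth is unknown, 2 libraries per group limit each comparison, and a peak's absence has no error of its own.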
